A study of Mus musculus with 24 samples.

Results

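Sirpa, Cd4, Esam, Cd7, Lyz2, Mmp12, Tgfbi and S100a4 are 8 genes by which the CD11b+ conventional dendritic cell (cDC) of the mouse spleen and its myeloid character are recognised. Each was found by its symbol in the platform annotation and had 1 probe set that carries no other symbol. They are 8 of 19938 genes with such a probe set, and all 8 were among the 11228 genes that passed the filter on low values. Expression was measured on 24 arrays of sorted spleen cDC from female mice aged 8 to 10 weeks, 12 h after an injection. The CD11b+ cDC came from NOD mice given CpG-A, NOD mice given PBS, B6 (C57BL/6) mice given CpG-A and B6 mice given PBS, and the CD8+ cDC came from the same 4 kinds of mice, with 3 arrays in each of the 8 groups. NOD is an inbred strain that develops autoimmune diabetes, B6 is the control strain, and CpG-A is a DNA oligonucleotide that engages Toll-like receptor 9. All cells were CD11c+ cells of collagenase-digested spleen, sorted on CD8 or CD11b. The labels do not say whether the 3 arrays of a group came from separate mice, so p-values measure the spread between these arrays, which may be technical.

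Spleen cDC fall into a CD8+ subset, specialised in taking up dead cells and presenting their antigens to CD8 T cells, and a CD11b+ subset that presents antigen mainly to CD4 T cells. The CD11b+ subset carries the inhibitory receptor SIRPα, which binds CD47 on neighbouring cells, and much of it carries CD4 and the adhesion molecule ESAM. The ESAM-bearing cells depend on Notch2 signalling in the splenic marginal zone. Lysozyme, macrophage elastase, the matrix protein TGFBI and the calcium-binding protein S100A4 are products that this subset shares with monocytes and macrophages. The labels state no aim beyond the comparison of the subsets, strains and injections.

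The labels of the sorted subsets were set against their defining genes. Itgam, which encodes CD11b, measured 6.61 to 9.03 on the log2 scale on the CD11b+ arrays, against 4.45 to 5.39 on the CD8+ arrays. Cd8a measured 5.04 to 8.81 on the CD11b+ arrays, against 10.99 to 11.71 on the CD8+ arrays, so the sort labels and these genes did not conflict. Itgam was itself lower after CpG in CD11b+ cDC, with differences of -1.41 in NOD and -1.99 in B6 (limma, adjusted p = 0.000137 and 5.5e-07). Marker lists of other cells differed between groups, most for natural killer (NK) cells. The mean of 12 NK cell markers was 9.03 to 10.05 on the CD11b+ B6 CpG arrays, against 6.50 to 7.20 on the CD11b+ B6 PBS arrays and 5.68 to 6.89 on the CD11b+ NOD arrays. All 12 markers exceeded the array median on every CD11b+ B6 CpG array, and Ncr1, an NK receptor, measured 9.92, 10.49 and 9.33 there, against 6.13, 6.78 and 6.12 in CD11b+ B6 PBS cDC. On the CD8+ arrays the NK list stood between 5.75 and 6.55. The mean of 10 T cell markers stayed between 5.67 and 6.31 on all 24 arrays, near the array medians of 5.79 to 5.87. Of 8 tested T cell markers, 4 were higher and 1 lower after CpG in B6 CD11b+ and 3 and 1 in B6 CD8+ cDC. Over all genes, 15.9% were higher and 23% lower in the first and 21.1% and 36.6% in the second. In NOD mice 0 were higher and 1 lower in CD11b+, and 1 and 1 in CD8+ cDC (9.7% and 5.73%, and 15.1% and 25.5%, of all genes). The other lists spanned 5.98 to 8.54 for B cells, 6.45 to 8.67 for red pulp macrophages, 6.20 to 7.28 for monocytes, 4.74 to 5.68 for neutrophils and 6.84 to 8.32 for plasmacytoid dendritic cells. Under PBS, 6 of 12 red pulp macrophage markers were lower and 3 of 4 tested neutrophil markers higher in NOD than in B6 CD11b+ cDC. Over all genes, 3.18% were lower and 2.41% higher in that comparison. In CD8+ cDC, 5 of 8 B cell markers were higher in NOD than in B6 under PBS, against 2.03% of all genes. The list of genes shared by all cDC lay between 10.01 and 10.82 on every array, and that of CD8+ (cDC1) genes lay between 7.38 and 7.94 in CD11b+ cDC, against 9.09 to 10.58 in CD8+ cDC. Array values correlated with those of their own group at 0.95 to 0.971 in CpG-treated NOD CD8+ cDC, the lowest of all groups, and at 0.979 to 0.988 elsewhere.

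**Figure D1:**
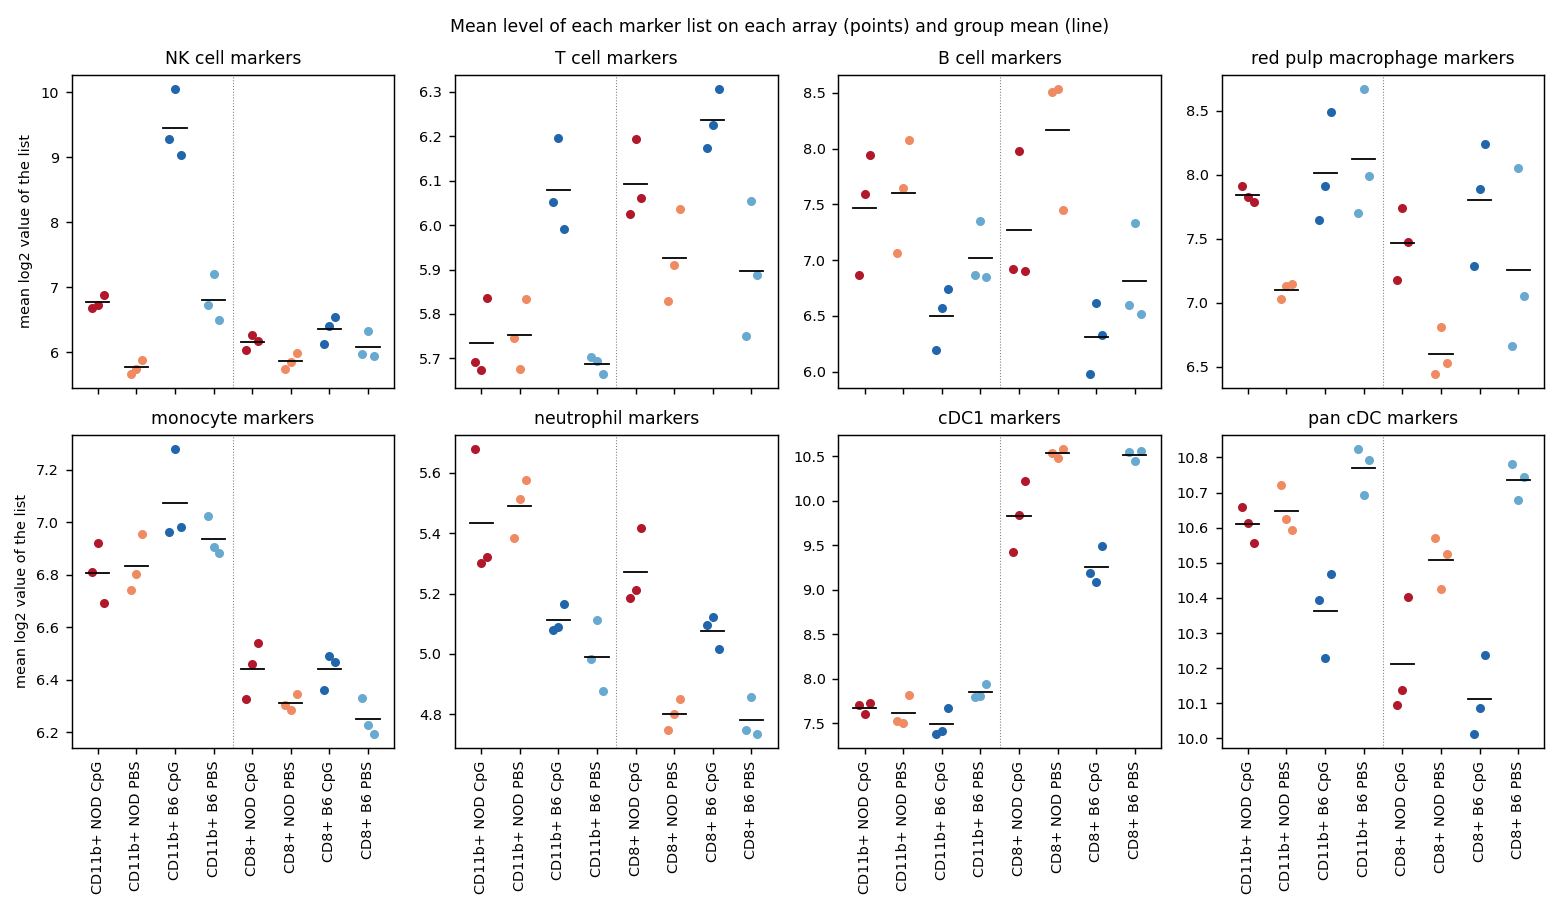
Mean log2 value of 8 marker lists (y axis) on each of the 24 arrays (points), by group (x axis), with the group mean as a line. The NK cell list stands at 9.03 to 10.05 in CD11b+ B6 CpG cDC and at 7.20 or less on every other array, while the T cell list stays between 5.67 and 6.31.

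All 8 genes were higher in CD11b+ than in CD8+ cDC, in each of the 4 settings of strain and injection, and all but 1 of these 32 differences passed the test. The exception was Tgfbi in PBS-treated B6 mice. The number of genes called higher (adjusted p under 0.05) was 8 of 8 in NOD mice given CpG, 8 of 8 in NOD mice given PBS, 8 of 8 in B6 mice given CpG and 7 of 8 in B6 mice given PBS. Over all genes tested, 24.1%, 11.2%, 24.5% and 12.2% were called higher in these settings. The genes are known for this subset and were chosen with results of these arrays in view, so their direction is not independent evidence. The monocyte list stood at 6.69 to 7.28 on the CD11b+ arrays, against 6.20 to 6.54 on the CD8+ arrays. Of its 4 tested genes, 2 were higher and 0 lower in CD11b+ cDC in NOD CpG, and 2 and 1 in NOD PBS. In B6 mice 3 were higher and 0 lower after CpG, and 3 and 1 after PBS. Of 12 red pulp macrophage markers, 3 were higher and 2 lower in NOD CpG, and 1 and 2 in NOD PBS. In B6 mice 1 was higher and 1 lower after CpG, and 5 and 0 after PBS. Over all 11228 genes tested, 1624 were lower in NOD CpG, 1192 in NOD PBS, 1441 in B6 CpG and 1074 in B6 PBS. The part of monocytes and macrophages in the subset differences was not tested. In a sorted population, a smaller share of cells that express a gene and less RNA of it per cell cannot be told apart.

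**Figure D2:**
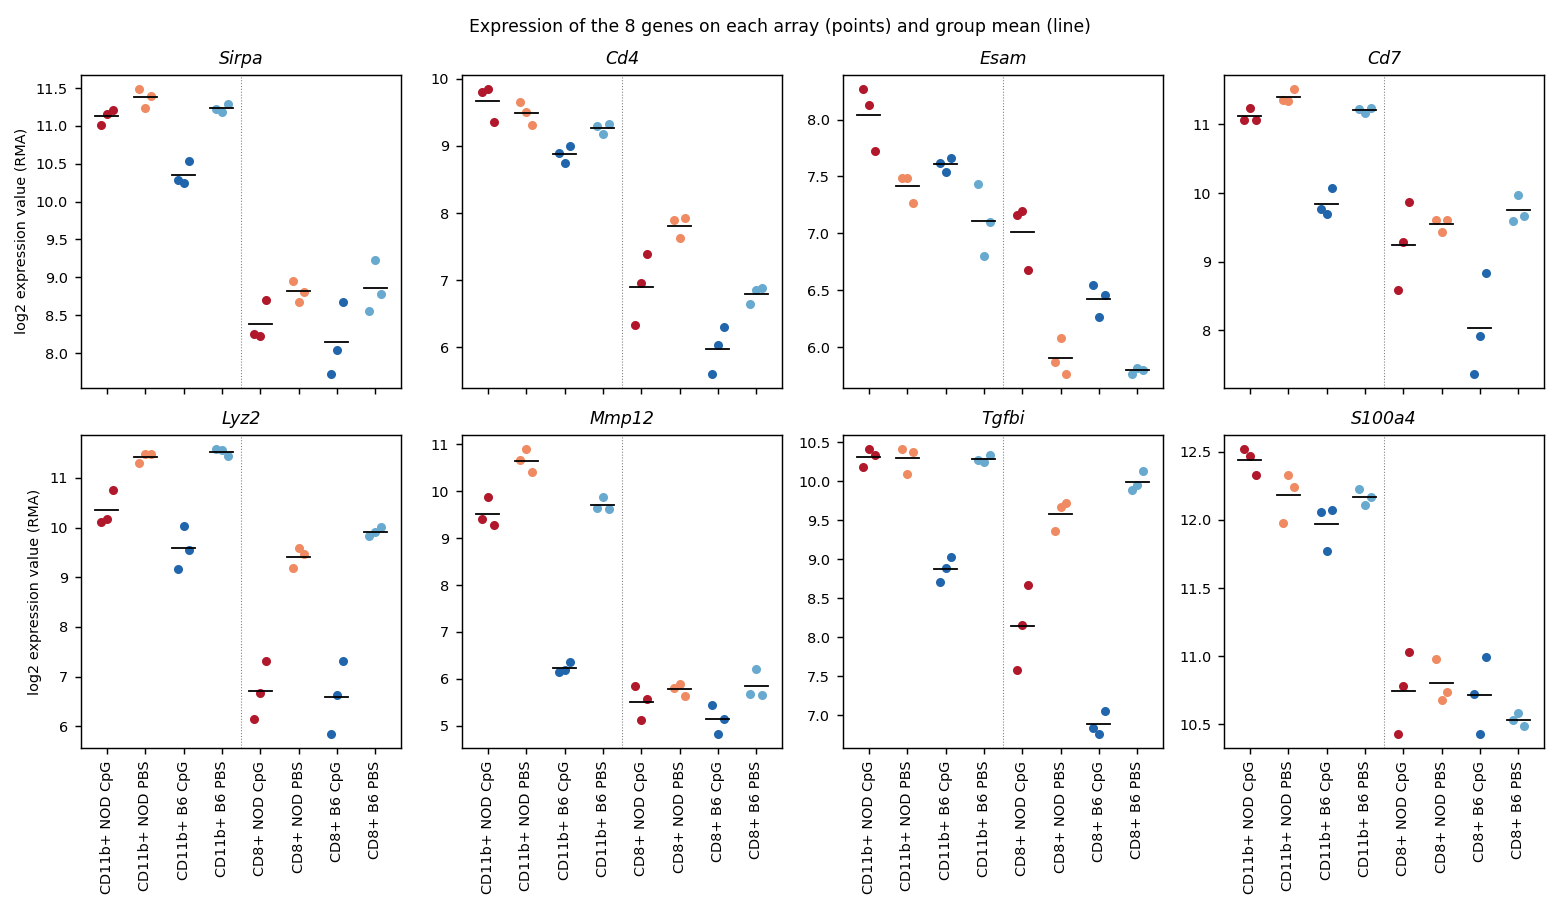
Log2 expression value (y axis) of the 8 genes on each of the 24 arrays (points), by group (x axis), with the group mean as a line; the dotted line parts CD11b+ from CD8+ cDC. Mmp12 is high in 3 CD11b+ groups and at 6.14 to 6.36 in CD11b+ B6 CpG cDC, and Tgfbi and Lyz2 are low in CpG-treated CD8+ cDC.

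Sirpa encodes the receptor SIRPα, through which myeloid cells read CD47 as a signal against engulfment. In CD11b+ cDC its log2 value was 11.01, 11.16 and 11.21 on the NOD CpG arrays, 11.49, 11.24 and 11.4 on the NOD PBS arrays, 10.29, 10.24 and 10.54 on the B6 CpG arrays and 11.22, 11.18 and 11.29 on the B6 PBS arrays. In CD8+ cDC it was 8.25, 8.22 and 8.7 in NOD CpG, 8.95, 8.68 and 8.81 in NOD PBS, 7.73, 8.04 and 8.68 in B6 CpG and 8.56, 9.23 and 8.78 in B6 PBS. The 2 subsets did not overlap on any array, and CpG-treated B6 cells were the lowest group in each subset. The CD11b+ minus CD8+ difference was 2.73 in NOD CpG, 2.56 in NOD PBS, 2.21 in B6 CpG and 2.37 in B6 PBS (SE 0.18), between 4.62- and 6.65-fold, with adjusted p of at most 2.36e-09. Among neighbours in the order of levels, the NOD PBS, B6 PBS and NOD CpG groups of CD11b+ cDC overlapped, as did the neighbouring CD8+ groups.

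Cd4 encodes the CD4 co-receptor, which in the spleen marks many CD11b+ cDC as well as helper T cells. In CD11b+ cDC it measured 9.8, 9.85 and 9.35 in NOD CpG, 9.66, 9.5 and 9.31 in NOD PBS, 8.9, 8.74 and 9.0 in B6 CpG and 9.29, 9.17 and 9.33 in B6 PBS. In CD8+ cDC it measured 6.33, 6.96 and 7.39 in NOD CpG, 7.89, 7.63 and 7.92 in NOD PBS, 5.61, 6.03 and 6.3 in B6 CpG and 6.64, 6.85 and 6.89 in B6 PBS. The CD8+ cells of NOD mice thus stood above those of B6 mice under the same injection, and all of them stood below every CD11b+ array. The subset difference was 2.77 in NOD CpG, 1.68 in NOD PBS, 2.90 in B6 CpG and 2.47 in B6 PBS (SE 0.20), that is 3.21-fold at the smallest and 7.49-fold at the largest. Cd3e, which encodes a chain of the T cell receptor complex, was lower in CD11b+ than in CD8+ cDC in all 4 settings, with differences of -1.12 in NOD CpG, -1.02 in NOD PBS, -0.93 in B6 CpG and -0.59 in B6 PBS. Of 8 tested T cell markers, 1 was higher and 3 lower in NOD CpG and 1 and 1 in NOD PBS. In B6 mice 2 were higher and 3 lower after CpG, and 1 and 2 after PBS. Over all 11228 genes tested, 2711 were higher and 1624 lower in NOD CpG and 1256 and 1192 in NOD PBS. In B6 mice 2755 were higher and 1441 lower after CpG, and 1368 and 1074 after PBS. The part of T cells in the Cd4 difference was not tested.

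Esam encodes an endothelial and dendritic cell adhesion molecule that marks the Notch2-dependent CD11b+ cDC of the spleen. Its values in CD11b+ cDC were 8.27, 8.13 and 7.72 in NOD CpG, 7.49, 7.49 and 7.27 in NOD PBS, 7.62, 7.54 and 7.66 in B6 CpG and 7.43, 6.8 and 7.1 in B6 PBS. In CD8+ cDC they were 7.16, 7.2 and 6.68 in NOD CpG, 5.87, 6.08 and 5.77 in NOD PBS, 6.55, 6.27 and 6.46 in B6 CpG and 5.77, 5.82 and 5.8 in B6 PBS. Esam was highest in the CpG groups of either subset, and the NOD CpG group of CD8+ cDC overlapped the B6 PBS group of CD11b+ cDC. The subset difference ran from 1.02 in NOD CpG to 1.51 in NOD PBS (SE 0.16), 2.03- to 2.85-fold.

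Cd7 encodes an immunoglobulin-family receptor best known from T and NK cells. It measured 11.07, 11.24 and 11.07 in NOD CpG, 11.36, 11.34 and 11.52 in NOD PBS, 9.77, 9.69 and 10.08 in B6 CpG and 11.23, 11.17 and 11.24 in B6 PBS CD11b+ cDC. The CD8+ values were 8.59, 9.29 and 9.87 in NOD CpG, 9.61, 9.43 and 9.61 in NOD PBS, 7.37, 7.91 and 8.84 in B6 CpG and 9.6, 9.97 and 9.67 in B6 PBS. The arrays were tight in the CD11b+ groups and spread over more than a log2 unit in both CpG-treated CD8+ groups. The subset difference was 1.87 in NOD CpG, 1.86 in NOD PBS, 1.80 in B6 CpG and 1.47 in B6 PBS (SE 0.26). CD11b+ B6 CpG cDC was the lowest CD11b+ group for Cd7 and overlapped the B6 PBS group of CD8+ cDC. It is also the group with the high NK list, and the part of NK cells in its Cd7 values was not tested.

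RefSeq promoter windows on build GRCm38.p6 were at hand for 4 of the 8 genes, the secreted and myeloid products Lyz2, Mmp12, Tgfbi and S100a4. After CpG, Lyz2, Mmp12 and Tgfbi were lower in 3 or 4 of 4 settings, and S100a4 was not called in any. Whether the promoter letters bear on these changes was not tested. The 250 bases before the start of each of these 4 genes are shown, as no window was at hand for the others. Each is written 5′ to 3′ on the gene's strand, at chr10:117282273-117282522 (minus) for Lyz2, chr9:7344147-7344396 (plus) for Mmp12, chr13:56609336-56609585 (plus) for Tgfbi and chr3:90603520-90603769 (plus) for S100a4, with every match to a searched motif in capitals.
Lyz2: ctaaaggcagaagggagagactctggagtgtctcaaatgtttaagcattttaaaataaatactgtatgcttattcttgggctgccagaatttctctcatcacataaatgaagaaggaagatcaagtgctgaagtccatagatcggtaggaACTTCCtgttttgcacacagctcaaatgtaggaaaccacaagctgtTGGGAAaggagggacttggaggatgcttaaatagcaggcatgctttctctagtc
Mmp12: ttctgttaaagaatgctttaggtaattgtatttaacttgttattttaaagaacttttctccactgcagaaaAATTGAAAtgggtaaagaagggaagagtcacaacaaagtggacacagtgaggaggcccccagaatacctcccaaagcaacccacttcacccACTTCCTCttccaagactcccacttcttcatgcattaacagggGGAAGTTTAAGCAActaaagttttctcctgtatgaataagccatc
Tgfbi: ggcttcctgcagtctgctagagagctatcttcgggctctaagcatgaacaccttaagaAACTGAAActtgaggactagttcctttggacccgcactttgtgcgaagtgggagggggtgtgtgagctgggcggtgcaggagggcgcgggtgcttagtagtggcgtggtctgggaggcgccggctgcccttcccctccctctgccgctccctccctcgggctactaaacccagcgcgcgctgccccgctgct
S100a4: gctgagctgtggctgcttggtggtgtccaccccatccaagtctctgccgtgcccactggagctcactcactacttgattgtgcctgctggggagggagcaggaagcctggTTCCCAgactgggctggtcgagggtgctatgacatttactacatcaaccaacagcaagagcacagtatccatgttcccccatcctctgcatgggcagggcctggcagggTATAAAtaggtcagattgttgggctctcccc

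The motifs were searched on both strands in windows of 300 bases, from 250 before to 50 after the start, and positions count the first base of a match from the start. The myeloid PU.1 and ETS motif GAGGAAGT was found in Mmp12 at -88 and in S100a4 at 18, and 3.2% of 32851 windows hold it. The ETS core GGAAGT, which lies inside it, was found in Lyz2 at -100 and in Mmp12 at -88 and -45, and again in S100a4 at 18 (23.8% of windows). The RBPJ motif TGGGAA of Notch signalling was found in Lyz2 at -54 and in S100a4 at -140 (25.6%), and the IRF half-site AANNGAAA in Mmp12 at -179 and in Tgfbi at -192 (23.9%). The C/EBP motif TTGCNNAA was found in Mmp12 at -39 (10.8%), next to the ETS core at -45, and the TATA box TATAAA in S100a4 at -31 (13.6%). The ETS-IRF composite GGAANNGAA, the AP-1 motif TGANTCA and the STAT motif TTCNNNGAA, found in 8.24%, 7.81% and 8.3% of windows, had no match in these 4. RefSeq holds another Mmp12 window, at chr9:7347124-7347423 (plus), not shown here, which has the AP-1 motif at -44, the ETS core at -172 and the TATA box at 5. A match describes the letters of the window and is no evidence of binding.

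Lyz2 encodes lysozyme M, a bactericidal enzyme of macrophages, monocytes and neutrophils. In CD11b+ cDC it measured 10.11, 10.17 and 10.76 in NOD CpG, 11.29, 11.48 and 11.48 in NOD PBS, 9.17, 10.04 and 9.54 in B6 CpG and 11.58, 11.56 and 11.44 in B6 PBS. In CD8+ cDC it measured 6.14, 6.67 and 7.32 in NOD CpG, 9.18, 9.58 and 9.47 in NOD PBS, 5.85, 6.63 and 7.31 in B6 CpG and 9.83, 9.91 and 10.02 in B6 PBS. Under PBS the CD8+ cells thus also carried a clear lysozyme signal, and it was low only in the 2 CpG-treated CD8+ groups. The subset difference was 3.64 in NOD CpG, 2.00 in NOD PBS, 2.99 in B6 CpG and 1.60 in B6 PBS (SE 0.28), 12.4-fold at the largest. Lyz1, its near-identical neighbour, could share hybridisation with Lyz2 and was higher in CD11b+ cDC by 2.12 in NOD CpG, 1.88 in NOD PBS, 1.47 in B6 CpG and 1.29 in B6 PBS, so the 2 lysozyme genes are uncertain as separate signals.

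Mmp12 encodes macrophage elastase, a metalloproteinase that cuts elastin and other matrix proteins, and it had the largest subset difference of the 8 genes in 3 of the 4 settings. It measured 9.4, 9.87 and 9.29 in NOD CpG, 10.66, 10.9 and 10.4 in NOD PBS, 6.14, 6.18 and 6.36 in B6 CpG and 9.64, 9.88 and 9.62 in B6 PBS CD11b+ cDC. The CD8+ values were 5.85, 5.12 and 5.57 in NOD CpG, 5.81, 5.9 and 5.64 in NOD PBS, 5.45, 4.83 and 5.14 in B6 CpG and 5.67, 6.22 and 5.66 in B6 PBS. The CD8+ arrays lay between 4.83 and 6.22, around the array medians, and CD11b+ B6 CpG cDC came close to them. The table gives no detection call, so it does not say which of these low values are signal. The difference was 4.0 in NOD CpG, 4.87 in NOD PBS, 1.08 in B6 CpG and 3.87 in B6 PBS (SE 0.19), or 16-, 29.2-, 2.12- and 14.6-fold. In the order of levels NOD PBS CD11b+ cDC came first without overlap, the NOD CpG and B6 PBS groups overlapped, and every neighbouring pair below them overlapped from CD11b+ B6 CpG downward.

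Tgfbi encodes a secreted matrix protein that TGF-β induces and that binds collagens and integrins. In CD11b+ cDC it measured 10.18, 10.41 and 10.34 in NOD CpG, 10.41, 10.09 and 10.37 in NOD PBS, 8.7, 8.89 and 9.02 in B6 CpG and 10.27, 10.25 and 10.33 in B6 PBS. In CD8+ cDC it measured 7.58, 8.16 and 8.67 in NOD CpG, 9.36, 9.67 and 9.72 in NOD PBS, 6.83, 6.76 and 7.05 in B6 CpG and 9.89, 9.95 and 10.13 in B6 PBS. The subsets were close under PBS and far apart after CpG. The difference was 2.17 in NOD CpG and 1.99 in B6 CpG, against 0.71 in NOD PBS and 0.29 in B6 PBS (SE 0.18). The last of these missed the threshold with adjusted p = 0.288, although the arrays did not overlap, and passed with adjusted p = 0.0123 in a fit of those 6 arrays alone.

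S100a4 encodes a small calcium-binding protein of motile and inflammatory cells that binds non-muscle myosin. Its CD11b+ values ranged from 11.77 to 12.52 over the 12 arrays and its CD8+ values from 10.43 to 11.03. Group means were 12.44 ± 0.10 in NOD CpG, 12.19 ± 0.18 in NOD PBS, 11.97 ± 0.17 in B6 CpG and 12.17 ± 0.06 in B6 PBS CD11b+ cDC (SD, n = 3 each). The CD8+ means were 10.75 ± 0.30 in NOD CpG, 10.80 ± 0.16 in NOD PBS, 10.71 ± 0.28 in B6 CpG and 10.53 ± 0.05 in B6 PBS. Its subset difference was of like size in all 4 settings, at 1.69 in NOD CpG, 1.39 in NOD PBS, 1.25 in B6 CpG and 1.64 in B6 PBS (SE 0.13). All neighbouring CD8+ groups overlapped in the order of levels.

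**Figure D3:**
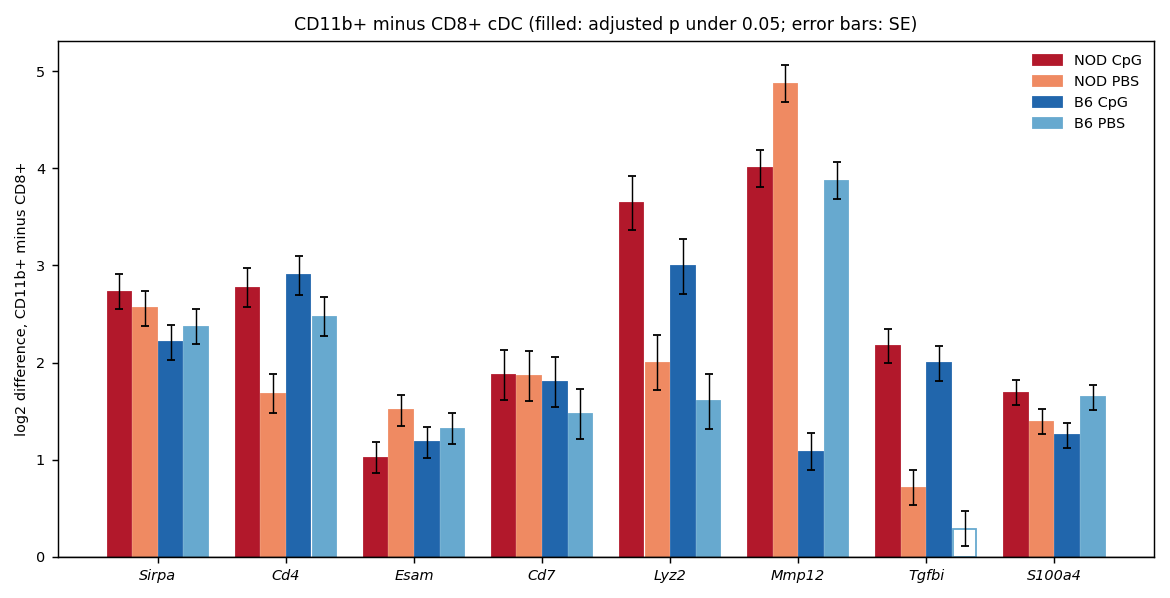
CD11b+ minus CD8+ log2 difference (y axis, with SE as error bars) of the 8 genes (x axis) in NOD CpG, NOD PBS, B6 CpG and B6 PBS mice; filled bars passed the test at adjusted p under 0.05. All bars are above 0, Mmp12 in NOD PBS is the tallest at 4.87, and Tgfbi in B6 PBS (0.29) is the only open bar.

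After CpG-A, Lyz2 was lower than after PBS in all 4 settings and Tgfbi and Mmp12 in 3 of the 4, Esam was higher in all 4, and S100a4 was called in none. In NOD CD11b+ cDC 2 of 8 genes were lower and 1 higher, where 5.73% and 9.7% of all genes tested were called lower and higher. In B6 CD11b+ cDC 5 were lower and 1 higher, against 23% and 15.9%. In NOD CD8+ cDC 3 were lower and 1 higher (25.5% and 15.1% of all genes), and in B6 CD8+ cDC 6 were lower and 1 higher (36.6% and 21.1%). The median CpG minus PBS difference of the 8 genes was -0.12 in NOD CD11b+, -1.12 in B6 CD11b+, -0.36 in NOD CD8+ and -0.76 in B6 CD8+ cDC, against -0.04, -0.07, -0.08 and -0.10 over all genes tested. CD11b+ B6 CpG cDC is also the group in which 11 of 12 NK markers were higher than under PBS, and the mean of 7 genes shared by all cDC was 10.23 to 10.47 there, against 10.69 to 10.82 under PBS. In B6 CD8+ cDC that mean was 10.01 to 10.24 after CpG, against 10.68 to 10.78 under PBS. In B6 CD8+ cDC, the NK list was at 6.13 to 6.55 after CpG and at 5.94 to 6.33 after PBS, with 4 of its 12 genes called higher and 1 lower. Sirpa, Cd7, Lyz2, Mmp12 and Tgfbi, the 5 genes lower in B6 CD11b+ cDC, were also lower in B6 CD8+ cDC. There 36.6% of all genes were lower, and the share of all genes lower in both subsets was not counted. Mmp12 lay around the array median in B6 CD8+ cDC, at 4.83 to 5.45 after CpG and 5.66 to 6.22 after PBS. The part of NK cells in either B6 result was not tested.

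**Figure D4:**
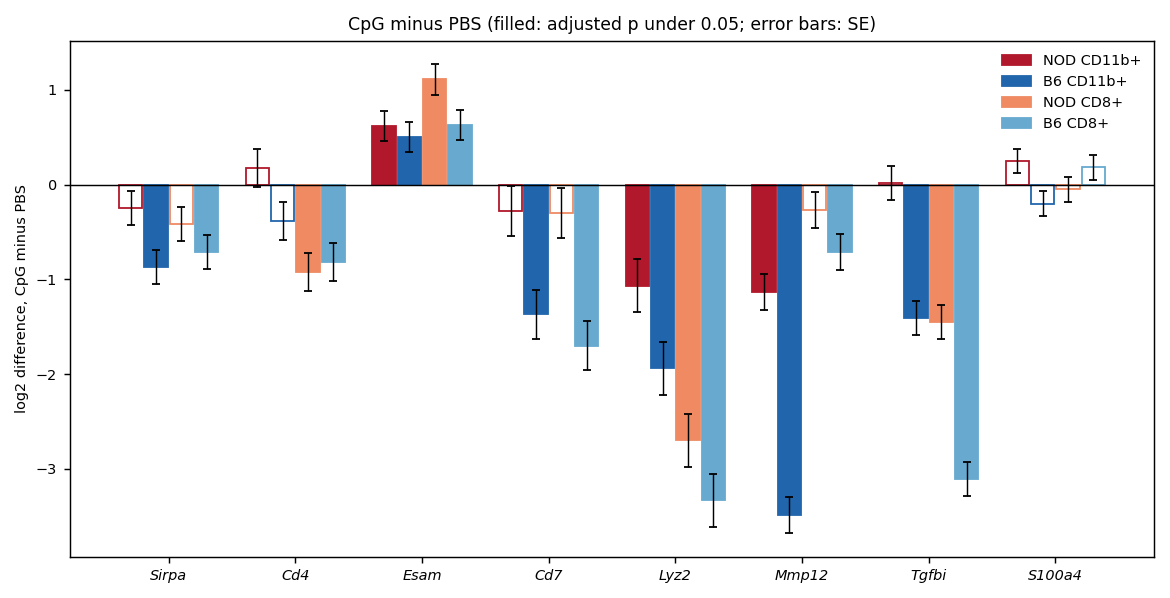
CpG minus PBS log2 difference (y axis, with SE as error bars) of the 8 genes (x axis) in NOD CD11b+, B6 CD11b+, NOD CD8+ and B6 CD8+ cDC; filled bars passed the test at adjusted p under 0.05. Esam is above 0 in all 4, Mmp12 in B6 CD11b+ (-3.49) and Lyz2 in B6 CD8+ cDC (-3.33) reach lowest, and all S100a4 bars are open.

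Among the surface receptors, Sirpa fell in both B6 subsets, with differences of -0.87 in CD11b+ and -0.71 in CD8+ cDC (adjusted p = 0.000531 and 0.00193), and the CD8+ arrays overlapped. In NOD mice its difference was -0.25 in CD11b+ and -0.42 in CD8+ cDC, neither of which passed (adjusted p = 0.41 and 0.0686). With the replicate number as a block the NOD CD8+ difference had adjusted p = 0.0398. Cd7 likewise fell in B6, with differences of -1.37 in CD11b+ and -1.70 in CD8+ cDC, 2.58- and 3.26-fold, and in NOD mice its differences of -0.28 in CD11b+ and -0.30 in CD8+ cDC missed the threshold. Cd4 fell in CD8+ cDC of both strains, with differences of -0.92 in NOD and -0.82 in B6, and in CD11b+ cDC its differences of 0.17 in NOD and -0.38 in B6 missed the threshold. In B6 CD11b+ cDC the Cd4 arrays did not overlap, and a fit of those 6 arrays alone gave adjusted p = 0.00838.

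Esam, by contrast, rose after CpG in all 4 settings, and the CpG and PBS arrays overlapped in none of them. The rise was 0.62 in NOD CD11b+, 0.50 in B6 CD11b+, 1.11 in NOD CD8+ and 0.63 in B6 CD8+ cDC, 1.41- to 2.15-fold, with adjusted p = 0.00771, 0.016, 8.5e-06 and 0.00163. The CD11b+ calls rested on single arrays: without replicate 1 of CpG-treated NOD cDC adjusted p was 0.0703, and without replicate 2 of PBS-treated B6 cDC it was 0.117.

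Of the secreted products, Lyz2 fell in every setting, with differences of -1.07 in NOD CD11b+, -1.94 in B6 CD11b+, -2.70 in NOD CD8+ and -3.33 in B6 CD8+ cDC, where the 10-fold change was the largest. Without replicate 1 of the CpG-treated NOD CD11b+ arrays the first of these had adjusted p = 0.0604. Lyz1 fell as well, with differences of -1.07 in NOD CD11b+, -2.13 in B6 CD11b+, -1.31 in NOD CD8+ and -2.30 in B6 CD8+ cDC. Mmp12 fell by 3.49, or 11.2-fold, in B6 CD11b+ cDC (adjusted p = 2.56e-12) and by 1.13, or 2.19-fold, in NOD CD11b+ cDC (adjusted p = 0.000157). In CD8+ cDC, where its signal was at the array median, the difference was -0.27 in NOD (adjusted p = 0.29) and -0.71 in B6 (adjusted p = 0.00351). Tgfbi fell in 3 settings, with differences of -3.11 in B6 CD8+, -1.45 in NOD CD8+ and -1.41 in B6 CD11b+ cDC, 8.64-, 2.72- and 2.66-fold. In NOD CD11b+ cDC the Tgfbi difference was 0.02 (SE 0.18, adjusted p = 0.959), with overlapping arrays.

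S100a4 differed between CpG and PBS by 0.25 in NOD CD11b+, -0.20 in B6 CD11b+, -0.05 in NOD CD8+ and 0.18 in B6 CD8+ cDC (SE 0.13), and the smallest adjusted p of the 4 was 0.24.

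Between the strains, Mmp12, Tgfbi, Cd7, Cd4, Sirpa and S100a4 were higher in NOD than in B6 CD11b+ cDC after CpG, and Cd4 was higher in NOD CD8+ cDC under either injection. In CD11b+ cDC 6 of 8 were higher in NOD mice after CpG and 1 of 8 after PBS, against 13.9% and 2.41% of all genes tested. In CD8+ cDC 4 of 8 were higher in NOD mice after CpG and 1 of 8 after PBS, against 12.4% and 2.03%. In the limma fit of all arrays none of the 8 was lower in NOD mice at adjusted p under 0.05 in these comparisons, against 9.22% of all genes in CpG-treated CD11b+, 3.18% in PBS-treated CD11b+, 7.84% in CpG-treated CD8+ and 1.59% in PBS-treated CD8+ cDC. At an unadjusted p under 0.05, 0, 0, 0 and 1 of the 8 were lower in these 4 comparisons. In a limma fit of the 6 PBS-treated CD8+ arrays alone, 3 of the 8 were called, Cd4 higher in NOD and Lyz2 and Tgfbi lower in NOD, with differences of -0.509 and -0.409 (adjusted p = 0.0135 and 0.0436). The arrays of the strains did not overlap for either gene, and in the fit of all arrays their adjusted p was 0.545 and 0.319. In CpG-treated CD8+ cDC the fit of 6 arrays called 1 of the 8. These comparisons use the same arrays as those of CpG with PBS. The NK list averaged 6.69 to 6.89 on the CD11b+ NOD CpG arrays, against 9.03 to 10.05 on the CD11b+ B6 CpG arrays, with 10 of its 12 genes lower in NOD. The part of that in the CD11b+ strain differences was not tested.

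In CpG-treated CD11b+ cDC, Mmp12 was 9.81-fold higher in NOD than in B6 mice, a difference of 3.29 (SE 0.19, adjusted p = 2.11e-11). Tgfbi was higher by 1.44 and Cd7 by 1.28, with adjusted p = 2.04e-06 and 0.000828. Cd4, Sirpa and S100a4 were higher by 0.78, 0.77 and 0.47, with adjusted p = 0.00569, 0.00319 and 0.0124. The S100a4 call was lost without replicate 2 of the B6 CpG arrays (adjusted p = 0.0757). Lyz2 and Esam differed by 0.76 and 0.43, with adjusted p = 0.0541 and 0.054, and missed the threshold. The arrays of the 2 strains overlapped for none of the 8 genes in this comparison. How many of all genes tested had no overlap was not counted, so this adds nothing to the test. Under PBS only Mmp12 was called, higher in NOD by 0.94 (1.92-fold, adjusted p = 0.00323), and the other 7 genes differed by -0.11 to 0.30. The red pulp macrophage list stood at 7.03 to 7.14 in NOD PBS CD11b+ cDC, against 7.70 to 8.67 in B6 PBS, with a median difference of -1.20 over its 12 genes. The neutrophil list stood at 5.38 to 5.57 in NOD PBS, against 4.88 to 5.11 in B6 PBS, with a median of 0.84 over the 4 genes tested. The part of these cells in the Mmp12 difference was not tested.

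In CD8+ cDC, Cd4 was higher in NOD than in B6 mice after CpG, by 0.91 (adjusted p = 0.00238), and after PBS, by 1.02 (adjusted p = 0.00272), 1.88- and 2.03-fold. The arrays of the 2 strains did not overlap under either injection. Cd3e differed between the strains by 0.06 after CpG and 0.06 after PBS (adjusted p = 0.861 and 0.978). The B cell list stood at 7.45 to 8.54 in NOD PBS against 6.52 to 7.33 in B6 PBS CD8+ cDC. Of its 8 genes, 5 were called higher. The plasmacytoid dendritic cell list stood at 7.84 to 7.92 in NOD PBS against 7.45 to 7.66 in B6 PBS. Of its 10 genes, 1 was called higher and 0 lower. After CpG this list stood at 7.76 to 8.32 in NOD against 7.55 to 7.90 in B6, with 2 higher and 0 lower. Over all genes tested, 2.03% were higher under PBS and 12.4% after CpG. The part of either cell type in the Cd4 difference was not tested. After CpG, Tgfbi was higher in NOD by 1.26, Cd7 by 1.21 and Esam by 0.59, with adjusted p = 2.25e-05, 0.0021 and 0.0116. Cd7 arrays overlapped, at 8.59, 9.29 and 9.87 in NOD against 7.37, 7.91 and 8.84 in B6. In a fit of those 6 arrays alone Cd4, Cd7 and Esam missed the threshold, with adjusted p = 0.119, 0.143 and 0.119, and Tgfbi alone passed. The Esam call was also lost without replicate 2 of the NOD CpG arrays (adjusted p = 0.0666) or of the B6 CpG arrays (0.0629). Mmp12, Lyz2, Sirpa and S100a4 were not called in CD8+ cDC in the fit of all arrays.

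**Figure D5:**
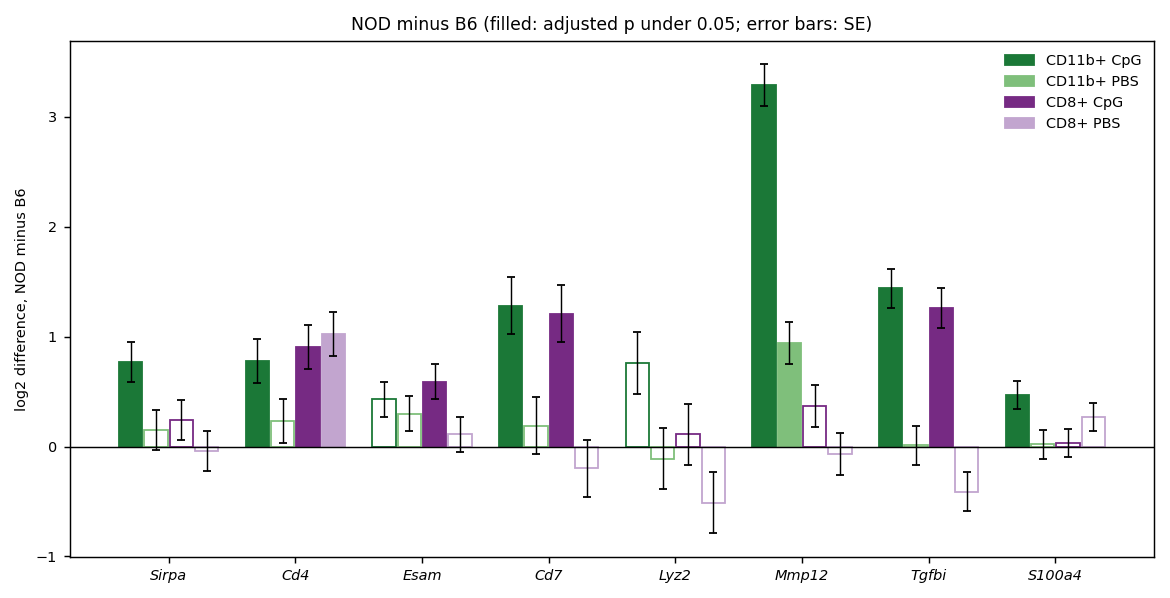
NOD minus B6 log2 difference (y axis, with SE as error bars) of the 8 genes (x axis) in CpG-treated CD11b+, PBS-treated CD11b+, CpG-treated CD8+ and PBS-treated CD8+ cDC; filled bars passed the test at adjusted p under 0.05. Mmp12 in CpG-treated CD11b+ cDC stands out at 3.29, and Cd4 is filled in CpG-treated CD11b+ cDC and in both CD8+ comparisons.

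Whether the CpG response itself differed between strains was tested as an interaction, the CpG change in NOD minus that in B6. In CD11b+ cDC 2 of 8 genes passed, Mmp12 with 2.36 (SE 0.28, adjusted p = 1.57e-05) and Tgfbi with 1.43 (SE 0.25, adjusted p = 0.00128), against 4.38% of all genes tested in either direction. Mmp12 had fallen less in NOD than in B6, and Tgfbi had fallen in B6 alone. Cd7 had 1.09 with adjusted p = 0.1. In the fit of these 4 groups alone Cd7, Sirpa, Lyz2 and S100a4 also passed, with adjusted p = 0.000166, 0.00634, 0.0467 and 0.0444. In CD8+ cDC 2 of 8 passed against 4.02% of all genes, Tgfbi with 1.67 (adjusted p = 0.000316) and Cd7 with 1.41 (adjusted p = 0.0299). The Cd7 call was lost on leaving out any 1 of 9 of these 12 arrays, with adjusted p of at most 0.0993, and in the fit of these groups alone (0.179).

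The CpG response also differed between subsets, tested as the CpG change in CD11b+ minus that in CD8+ cDC, for 3 of 8 genes in each strain, against 6.8% of all genes tested in NOD and 13.4% in B6. For Tgfbi this difference was 1.47 in NOD and 1.70 in B6, and for Lyz2 it was 1.63 in NOD and 1.39 in B6, so the loss was greater in CD8+ cDC. The adjusted p was 0.000773 and 5.93e-05 for Tgfbi and 0.0152 and 0.0227 for Lyz2. The B6 call for Lyz2 was lost on leaving out any 1 of 4 arrays, replicate 2 of CD11b+ CpG, replicate 3 of CD11b+ PBS, replicate 1 of CD8+ CpG or replicate 3 of CD8+ PBS (adjusted p = 0.0764, 0.0512, 0.0768 and 0.0532). Mmp12 fell more in CD11b+ than in CD8+ cDC of B6 mice, with -2.78 (adjusted p = 5.29e-07), and had -0.87 in NOD, where adjusted p was 0.0607, or 0.0435 with the replicate number as a block. As Mmp12 in PBS-treated CD8+ cDC was already around the array median, at 5.81, 5.9 and 5.64 in NOD and 5.67, 6.22 and 5.66 in B6, a fall of the size seen in CD11b+ cDC could not be measured there, and these tests do not compare responses over the same range. Cd4 passed in NOD with 1.09 (adjusted p = 0.0204), and in B6 it had 0.44. That call was lost without replicate 2 of NOD CD11b+ CpG, replicate 3 of NOD CD11b+ PBS, replicate 1 of NOD CD8+ CpG or replicate 3 of NOD CD8+ PBS, with adjusted p between 0.054 and 0.0604. It was also lost in the limma fit of these 4 groups alone (adjusted p = 0.0837). The NOD minus B6 difference was larger in CD11b+ than in CD8+ cDC after CpG for Mmp12 alone, by 2.92 (adjusted p = 3.63e-07, 5.3% of all genes called). Under PBS this limma test called 0 of 8 genes (2 at an unadjusted p under 0.05) and 0.882% of all genes tested.

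The 8 genes were set beside other genes of their pathways, by lists chosen as the members were. Of 23 further genes of the CD11b+ subset that were tested, 17 were higher and 1 lower in CD11b+ cDC of NOD PBS mice and 18 higher and 1 lower in B6 PBS mice, with median differences of 1.24 and 1.63 against 0.01 and 0.02 over all genes. Over all 11228 genes tested, 1256 were higher and 1192 lower in NOD PBS, and 1368 and 1074 in B6 PBS. That is the background of every list count between subsets under PBS. The lectin receptor genes Clec4a1, Clec4a3 and Clec4a4 were higher by 4.54, 4.09 and 3.95 in NOD PBS and by 4.53, 3.77 and 4.33 in B6 PBS mice. After CpG, 3 of the 23 were higher and 7 lower in NOD CD11b+ cDC, and none was higher and 15 lower in B6 CD11b+ cDC, with medians of -0.13 and -1.01. Over all genes tested, 9.7% were higher and 5.73% lower in NOD, and 15.9% and 23% in B6, which is the background of every CD11b+ list count after CpG. Cd209a, which encodes a lectin of the DC-SIGN family, fell in both, with differences of -3.90 in NOD and -4.98 in B6, and Clec4a2 with -2.15 in B6. The strain by CpG test in CD11b+ cDC called 6 of the 23, all with a positive difference, among them Clec4a2 with 1.63 and Clec12a with 1.46 (adjusted p = 0.000277 and 0.00603).

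Of the genes around SIRPα and CD47, 4 of 6 tested were higher in CD11b+ cDC and none lower in NOD PBS mice, and likewise 4 and none in B6 PBS mice. Fyb and Ptpn6, an adaptor and a phosphatase of that signalling, were higher by 1.36 and 0.82 in NOD and by 1.26 and 0.95 in B6 mice. Cd47, the ligand, was higher by 0.45 in NOD and 0.28 in B6. After CpG 2 of the 6 rose and 4 fell in B6 CD11b+ cDC, Cd47 with 0.33 (adjusted p = 0.00591), Fyb with -0.63 and Ptpn6 with -0.39.

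Around Esam, 4 of 16 tested Notch and lymphotoxin pathway genes were higher and 1 lower in NOD PBS CD11b+ cDC, and 7 were higher and 1 lower in B6 PBS. Over all genes tested, 11.2% were called higher in NOD PBS and 12.2% in B6 PBS. The Notch target Dtx1 was higher by 1.63 in NOD and 2.12 in B6, and Ltb (lymphotoxin β) by 1.24 and 1.75. Rbpj, the nuclear partner of Notch, was lower, with differences of -0.67 and -0.80. Notch2 itself differed by 0.12 in NOD and 0.03 in B6 and was not called. After CpG, 4 of the 16 were higher and 1 lower in NOD CD11b+ cDC, and 5 were higher and 5 lower in B6 CD11b+ cDC, against 9.7% higher and 5.73% lower of all genes in NOD and 15.9% and 23% in B6. Lta and Relb rose by 1.34 and 0.95 in NOD and by 2.12 and 1.11 in B6. The Notch target Hes1 and Notch2 fell in B6 CD11b+ cDC, with differences of -1.30 and -0.40 (adjusted p = 2.89e-05 and 0.0116).

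Among 8 tested metalloproteinases and related genes, Mmp25 rose after CpG by 2.59 in NOD and 4.05 in B6 CD11b+ cDC while Mmp12 fell. Of the 8, 2 were higher and none lower in NOD, and 3 higher and 1 lower in B6. Mmp9, which encodes a gelatinase, had a difference of -1.32 after CpG in B6 CD11b+ cDC. It was higher in NOD than in B6 CD11b+ cDC after CpG by 1.64 (adjusted p = 1.8e-06). In that comparison 2 of the 8 were higher and 2 lower, against 13.9% and 9.22% of all genes tested. Mmp9 is also in the neutrophil list, of which 2 of 4 tested genes were higher in NOD and none lower, with a median of 0.69. The part of neutrophils in the Mmp9 difference was not tested. Of 13 tested genes of the TGF-β pathway, none was higher and 4 lower after CpG in NOD CD8+ cDC, 2 higher and 6 lower in B6 CD8+ cDC and 4 higher and 5 lower in B6 CD11b+ cDC. Over all genes tested, 15.1% were higher and 25.5% lower in NOD CD8+, 21.1% and 36.6% in B6 CD8+, and 15.9% and 23% in B6 CD11b+ cDC. Tgfb1 fell in these groups, with differences of -0.81, -1.66 and -1.16. The receptor gene Tgfbr2 had -0.86, -1.23 and -0.95.

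Of 8 tested S100 family and partner genes, 4 were higher and 1 lower in CD11b+ cDC under PBS in NOD mice, and 4 and 1 in B6 mice. S100a6 was higher by 1.25 in NOD and 1.42 in B6, and S100a10 by 1.06 and 1.77. After CpG 5 were higher and 1 lower in B6 CD11b+ cDC, where Anxa2 and S100a9 rose by 1.21 and 1.18 and S100a4 was not called. S100a9 is also in the neutrophil list, of which 2 of 4 tested genes were higher and 1 lower in that comparison. Of 18 tested myeloid granule, lysosome and transcription factor genes, 10 were higher and 3 lower in CD11b+ cDC of NOD PBS mice and 12 higher and 2 lower in B6 PBS mice. Of all 11228 genes tested, 1256 were higher and 1192 lower in NOD PBS, and 1368 and 1074 in B6 PBS. Fcer1g, a signalling chain of Fc receptors, was higher by 1.57 in NOD and 1.46 in B6. Mpeg1, which encodes perforin-2, was lower, with differences of -2.42 and -1.67.

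Over the 24 arrays all pairs of the 8 genes correlated positively, and the weakest correlations were mostly those of Esam. Pairwise Pearson correlation, a description over arrays that fall into 8 groups, was highest for Sirpa with Cd4 and with S100a4 (0.95 each) and lowest for Esam with Tgfbi (0.20) and with Lyz2 (0.27). Lyz2 and Tgfbi correlated at 0.92. Outside the pairs with Esam, the lowest was Tgfbi with S100a4 (0.56). The tested genes whose pattern was most like each member, by the same measure, were St8sia6 (0.986) and Gm9733 (0.984) for Sirpa, and Fgr (0.986) and Tlr1 (0.981) for Cd4. They were Tlr7 (0.940) and Ctss (0.934) for Esam, and Ctsa (0.982) and Slc44a2 (0.981) for Cd7. For Lyz2 they were Stap1 (0.980) and Cd300c2 (0.975), for Mmp12 Clec4a2 (0.982) and Ctnnd2 (0.974), for Tgfbi H2-Oa (0.979) and Nfatc2 (0.977), and for S100a4 Mcemp1 (0.982) and Ube2e2 (0.981). Esam had the least close match of the 8.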

How the data were processed

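The deposited table holds log2 expression values of 35556 probe sets on 24 arrays. Per the submitters' processing notes the authors obtained them by RMA in Partek, with no version given. Per the labels, 5 ng of RNA was amplified and 2.5 µg of cDNA was labelled. The labels name a GeneChip Mouse Genome array, but the probe set identifiers match the annotation of another gene array, so the model is unsettled, and the genome build is not given in the sources used here. The table gives no signal over background, and precision is limited by having 3 arrays a group. The platform annotation lists 1 gene symbol for 21789 probe sets, several for 1621 and none for 12146. Where a gene had several probe sets (999 genes), the one with the highest mean was used, which left 19938 genes. The 11228 genes above the median of an array on 3 or more arrays were tested.

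In R 4.3.3, limma 3.58.1 fitted a mean for each of the 8 groups over all 24 arrays, with eBayes and its trend, two-sided, with Benjamini-Hochberg adjustment within each of 18 contrasts over all genes tested, at 0.05. The script was tested on simulated data. Alternatives changed the filter, the scaling, the arrays in the fit (the compared groups alone, or each array left out) and the replicate block. Replicate numbers come from the sample titles. Deviations of same-numbered arrays from their group means correlated above 0.1 for every pair in 8 of the 12 comparisons between 2 groups (the 4 of subsets, CpG with PBS in NOD, and NOD with B6 in CD8+ cDC). The text names the 8 genes, the 2 most correlated genes of each, up to 4 called genes of largest change and 2 not called of highest mean per list and comparison, and Itgam, Cd8a, Itgax, Notch2, Irf4, Cd47, Cd3e, Ncr1 and Lyz1. The members and lists were chosen with earlier results of these data known. Promoter windows came from RefSeq on GRCm38.p6.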

Additional observations from a re-analysis of the deposited data

Results flagged for a closer look

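In 11 cases the effect of CpG, or of strain, on 1 of the 8 genes differed between 2 strains or subsets by a test of the difference itself (limma, adjusted p under 0.05). Between strains, as the CpG change in NOD minus that in B6, these were Mmp12 (2.36) and Tgfbi (1.43) in CD11b+ cDC, and Tgfbi (1.67) and Cd7 (1.41) in CD8+ cDC. Between subsets, as the CpG change in CD11b+ minus that in CD8+ cDC, they were Cd4 (1.09), Lyz2 (1.63) and Tgfbi (1.47) in NOD, and Lyz2 (1.39), Mmp12 (-2.78) and Tgfbi (1.70) in B6. The NOD minus B6 difference after CpG was larger in CD11b+ than in CD8+ cDC for Mmp12 (2.92). All values are log2 differences of differences. Over all genes, such tests called between 0.882% (subset by strain, PBS) and 13.4% (subset by CpG, B6). The calls of Cd7 in CD8+ cDC, Cd4 in NOD and Lyz2 in B6 were each lost when single arrays were left out. Mmp12 lay around the array median in CD8+ cDC, between 4.83 and 6.22, so its 2 comparisons between subsets set a gene with room to fall against one near the floor. Groups of 3 arrays are too small for a test of single outlying arrays, and none was run.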

How the results depend on the processing

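Of 74 called differences of the 8 genes, 64 kept their direction and their call under every alternative run, 10 lost the call under at least 1 and 0 reversed. A fit of only the groups compared moved the number of genes called to 3 for NOD with B6 in PBS-treated CD8+ cDC (1 in the fit of all arrays), to 1 in CpG-treated CD8+ cDC (4), to 6 for the strain by CpG test in CD11b+ cDC (2) and 1 in CD8+ cDC (2), and to 2 for the subset by strain test under PBS (0). Median centring left 1 of 2 in the strain by CpG test in CD8+ cDC, with adjusted p = 0.0529 for Cd7, and quantile normalization ended the subset by CpG call of Cd4 in NOD (0.0613). Leaving out 1 array gave 1 to 3 called for CpG in NOD CD11b+ cDC (1 without replicate 1 of the CpG arrays) and 1 to 2 for the strain by CpG test in CD8+ cDC. Differences that changed sign were not called, and some shifted widely when 1 array was left out. Without single arrays they ranged from -0.192 to 0.139 for Sirpa, -0.161 to 0.12 for Mmp12 (both NOD minus B6, PBS-treated CD8+), -0.258 to 0.468 for Lyz2 and -0.11 to 0.192 for S100a4 (NOD minus B6, CpG-treated CD8+), and -0.0529 to 0.111 for Tgfbi and -0.0585 to 0.117 for S100a4 (NOD minus B6, PBS-treated CD11b+). For CpG minus PBS they ranged from -0.0824 to 0.0851 for Tgfbi (NOD CD11b+; -0.108 after quantile normalization), and from -0.196 to 0.106 for S100a4 and -0.608 to 0.0327 for Cd7 (NOD CD8+). In the strain by CpG test they ranged from -0.353 to 0.176 for Cd4 (CD8+) and -0.0351 to 0.285 for Esam (CD11b+). Over all genes, the fit of only the groups compared gave 2554 called genes against 4335 (CD11b+ with CD8+, NOD CpG), 2584 against 4567 (CpG, NOD CD8+), 390 against 2270 (NOD with B6, CpG-treated CD8+, 38.7% of them higher against 61.2%), 945 against 492 (strain by CpG, CD11b+, 66.2% higher against 54.9%), 164 against 451 (strain by CpG, CD8+), 303 against 764 (subset by CpG, NOD), and 181 against 99 and 266 against 595 (subset by strain, PBS and CpG). The stricter filter of 12 arrays gave 51 against 99 for the subset by strain test under PBS (37.3% higher against 49.5%), and median centring moved the share called higher for CpG in NOD CD11b+ cDC to 74.1% against 62.9%. Leaving out replicate 1 of CpG-treated NOD CD8+ cDC gave 3945 against 2270 genes for NOD with B6 and 2071 against 451 for the strain by CpG test in CD8+ cDC. The replicate block gave 766 against 492 and 728 against 451 genes in the strain by CpG tests in CD11b+ and CD8+ cDC, and in the comparisons whose numbers pair the arrays it changed no call of the 8 genes other than the 2 given beside their results (Sirpa and Mmp12). In comparisons not paired, Esam and Lyz2 (NOD with B6, CpG-treated CD11b+ cDC) and Cd7 (strain by CpG, CD11b+ cDC) passed with the block, at adjusted p = 0.032, 0.0109 and 0.0364. The causes were not tested.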

Other observations

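Irf4, which encodes a transcription factor that the CD11b+ subset depends on, was higher in CD11b+ than in CD8+ cDC by 0.82 in NOD PBS and 1.12 in B6 PBS mice (limma, adjusted p = 7.3e-05 and 1.12e-06). It differed by -0.33 in NOD CpG and -0.23 in B6 CpG mice (adjusted p = 0.0579 and 0.194). In CD8+ cDC Irf4 rose after CpG by 0.74 in NOD and 1.20 in B6. Itgax, which encodes CD11c, fell after CpG in CD8+ cDC, with differences of -1.12 in NOD and -2.04 in B6, and in CD11b+ cDC of B6 mice, with -1.29. In NOD CD11b+ cDC its difference was -0.33 (adjusted p = 0.253). Cd8a was higher after CpG in CD11b+ cDC, by 1.12 in NOD and 1.42 in B6, and in CD8+ cDC its differences of 0.31 and 0.09 were not called. Under PBS, Cd8a was lower in NOD than in B6 CD11b+ cDC, with a difference of -1.52 (adjusted p = 0.000382). These values were singled out after they were seen.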
